A study of Mus musculus with 12 samples.

Results

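Marginal zone (MZ) and follicular (FO) B cells are the main mature B cell populations of the mouse spleen, and the expression differences between them were measured here in cells in which both Bcl6 alleles were floxed. The comparison holds 4 of the 12 arrays of the series, 2 of MZ cells and 2 of FO cells from mb1-cre(+/-)Bcl6(flox/flox) mice, called homozygous below, chosen by their titles. For each gene the MZ minus FO difference in homozygous arrays was set beside the same difference in the 4 heterozygous arrays, mb1-cre(+/-)Bcl6(+/flox), and the 4 wild-type arrays, mb1-cre(+/-)Bcl6(+/+), which also hold 2 MZ and 2 FO arrays each. All mice were female C57BL/6 aged 10 weeks, and all carried 1 mb1-cre allele, wild-type mice included. The mb1-cre allele expresses Cre recombinase in the B lineage from an early stage of development, so the mature cells of both types descend from cells that had Cre. MZ cells were sorted as B220+AA4.1-CD21highCD23low and FO cells as B220+AA4.1-CD21intCD23+, after magnetic depletion with antibodies against CD5, CD43, CD95, CD138 and markers of T, myeloid and erythroid cells. The labels do not say how many mice were pooled, or whether both samples of a group are from different animals, and p-values therefore cover just the spread between samples as hybridised, part of which can be technical.

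BCL6 is a zinc finger repressor that recruits corepressor complexes to DNA, and it is best known as the regulator on which germinal centre B cells depend. MZ B cells sit next to the marginal sinus, are kept in place by sphingosine-1-phosphate receptors and integrins, need NOTCH2 signals for their development, and turn quickly into plasma cells on contact with blood-borne antigen. FO B cells recirculate through lymphoid follicles and are the usual source of germinal centre responses.

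Levels below are the deposited log2 GCRMA values of 1 probe set per gene, and differences are MZ minus FO on that scale. Over 9307 tested genes the 2 arrays of a group correlated with r = 0.975 in homozygous MZ and 0.979 in homozygous FO cells, against 0.944 in wild-type MZ cells and 0.978 in wild-type FO cells. Wild-type MZ replicate 1 stood apart, with a gap of 6.9 log2 units between its 3' and 5' Gapdh control probe sets (-0.2 to 0.63 on the other 11 arrays), a sign of shortened RNA or cDNA. It enters every wild-type value below unless a value without it is given. The lowest value was 2.21924 on every MZ array and 2.21262 on every FO array, so the 2 cell types may have been normalized in separate runs, and run and cell type then cannot be told apart. In total RNA from a sorted population, more RNA per cell and more cells of a kind cannot be told apart either.

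The 2 Bcl6 probe sets gave different pictures of the deletion. The lower of them read 2.22 and 2.22 in homozygous MZ cells and 2.36 and 2.48 in homozygous FO cells. In the heterozygous arrays it read 2.22 and 2.22 in MZ and 4.93 and 4.86 in FO cells, and in the wild-type arrays 2.22 and 2.22 in MZ and 4.94 and 5.61 in FO cells. This probe set thus separated MZ from FO cells in wild-type arrays by -3.06 and in homozygous arrays by -0.20, a change of 2.86 with limma adjusted p = 0.103 in the fit over every probe set. In MZ cells it lay at the minimum in every genotype and checks nothing there. The brighter one, which represents the gene in the fit, read 9.95 and 10.37 in homozygous MZ cells and 12.70 and 12.88 in homozygous FO cells, a difference of -2.63 ± 0.23 (SE, limma adjusted p = 9.99e-05). Its difference was -2.60 in heterozygous and -3.25 in wild-type arrays, and within each cell type the homozygous arrays were the highest, since wild-type arrays read 8.29 and 8.81 in MZ and 11.95 and 11.65 in FO cells. Where the probes lie relative to the floxed part is not stated in the labels, so the brighter signal does not check the deletion, and the genotype of the MZ libraries rests on their labels.

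The sort itself was visible in the transcripts. Cr2, which encodes the complement receptor CD21, read 14.05 and 14.63 in homozygous MZ cells and 12.07 and 12.62 in homozygous FO cells, a difference of 2.0 ± 0.33 (SE). Fcer2a, which encodes the low-affinity IgE receptor CD23, read 9.21 and 9.0 in homozygous MZ cells and 13.63 and 13.84 in homozygous FO cells, a difference of -4.63 ± 0.27. Since CD21 and CD23 defined the gates, both values describe the sort and are no result. The wild-type differences were 1.53 for Cr2 and -4.54 for Fcer2a.

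Of 9307 tested genes, 1774 (19.1%) differed between homozygous MZ and FO cells with a limma Benjamini-Hochberg adjusted p under 0.05, which is what called means below. MZ cells were higher for 770 of them (8.27%) and lower for 1004 (10.8%). That split depends on scaling, because the median difference over all tested genes was -0.175 log2 units. With quantile normalization over the 12 arrays the median was 0.03 and the calls numbered 886 higher and 659 lower, and with median centring they numbered 951 higher and 692 lower. Without homozygous FO replicate 1 or 2 the homozygous calls numbered 1009 each, and without MZ replicate 1 or 2 they numbered 1066 and 1059. Heterozygous cells gave 2159 calls in the same fit (23.2%), with MZ higher for 9.94% and lower for 13.3% of tested genes, and wild-type cells gave 2066 (22.2%), with 10.7% and 11.5%. MZ and FO arrays did not overlap for 5931 genes (63.7%), so non-overlap alone says little with 2 arrays a side.

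Most genes called between the cell types in homozygous cells were also called in wild-type cells. Of the homozygous calls, 1431 were called in the same direction in wild-type cells, 690 higher and 741 lower in MZ, which is 15.4% of the tested genes, 80.7% of the homozygous calls and 69.3% of the wild-type calls. The comparison of the 2 genotypes that keep a Bcl6 allele gave a similar share, as 1522 genes were called in both heterozygous and wild-type cells, 70.5% of the heterozygous and 73.7% of the wild-type calls. Without wild-type MZ replicate 1, the array of shortened RNA, the wild-type calls numbered 1518. Homozygous and wild-type cells then shared 1300 calls (62.8% of the homozygous and 85.6% of the wild-type calls), and heterozygous and wild-type cells shared 1380 (54.1% and 90.9%). Without homozygous FO replicate 1, FO replicate 2 or MZ replicate 2 the shared calls numbered 939, 911 and 937. In all 3 genotypes 1283 genes were called in 1 direction, 628 higher and 655 lower in MZ. Across genes the homozygous difference correlated with the heterozygous one at r = 0.896 and with the wild-type one at r = 0.868, while the heterozygous and wild-type differences correlated at 0.811. Without wild-type MZ replicate 1 the wild-type difference correlated at 0.891 with the homozygous and at 0.896 with the heterozygous one. These are descriptions over genes, which are not independent, and although the contrasts share no array they share 1 residual spread and the scaling of the cell types.

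**Figure D1:**
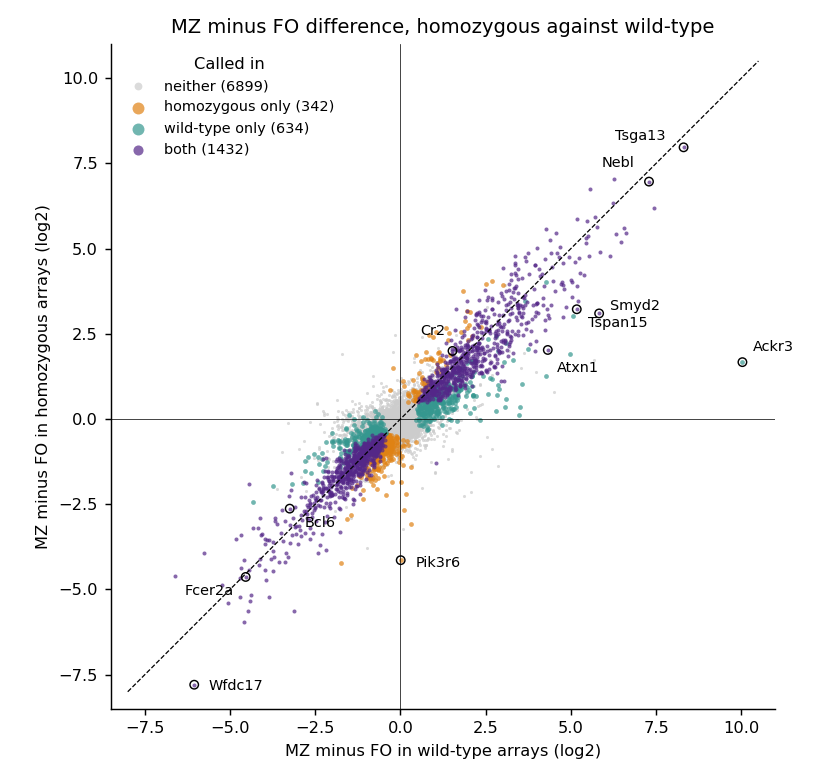
MZ minus FO difference (log2) of 9307 tested genes in homozygous arrays (vertical axis) against wild-type arrays (horizontal axis), coloured by the genotype in which the gene was called, with the dashed line at equal differences. Most called genes lie near that line, while Pik3r6 (-4.14 in homozygous, 0.01 in wild-type) and Ackr3 (1.67 in homozygous, 10.03 in wild-type) lie far from it.

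The 15 genes with the largest called excess in homozygous MZ cells were Tsga13, Asb2, Nebl, S1pr3, AF067061, Tbc1d9, Cacnb4, Ube2e2, Pde4d, Myof, Plxnd1, Ccna2, Bub1, Ackr2 and Rundc3b, with differences of 5.42 to 7.97. All 15 were called higher in heterozygous MZ cells (2.82 to 8.69) and in wild-type MZ cells (4.28 to 8.30), and all kept the homozygous call when any 1 of the 12 arrays was left out. Nebl, which encodes the actin-binding protein nebulette, read 10.25 and 10.36 in homozygous MZ cells and 3.59 and 3.10 in homozygous FO cells, a difference of 6.96 ± 0.21 (SE, limma adjusted p = 5.68e-07) against 7.29 in wild-type cells. S1pr3, a sphingosine-1-phosphate receptor, read 11.32 and 12.45 in homozygous MZ cells and 4.51 and 5.78 in homozygous FO cells, a difference of 6.74 ± 0.81 (limma adjusted p = 6.54e-04) against 5.56 in wild-type cells. Asb2, which gives substrate specificity to a cullin ubiquitin ligase, read 9.23 and 10.43 in homozygous MZ cells and 2.66 and 2.91 in homozygous FO cells. Both MZ arrays lay far above both FO arrays for each of these genes. Myof, which encodes the membrane protein myoferlin, differed by 5.64 in homozygous and 5.77 in wild-type cells. Plxnd1, a semaphorin receptor, differed by 5.59 and 6.57, and Ackr2, an atypical chemokine receptor, by 5.46 and 6.61, again homozygous first and wild-type second. For 6 of the 15, Tsga13 and Cacnb4 among them, homozygous FO cells lay within 0.5 log2 units of the minimum, so the size of the difference depends on the background correction.

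The 15 genes with the largest called deficit in homozygous MZ cells were Wfdc17, Gad1, Stac2, Maf, Fcgrt, Col27a1, Mex3b, Lifr, Dusp3, Gm11346, Ahnak, Dpm3, Fcer2a, Crisp3 and Vat1, at -7.79 to -4.46. All 15 were called lower in heterozygous and in wild-type MZ cells too, at -6.59 to -4.12 and -6.62 to -3.13, and all kept the homozygous call without any 1 array. Wfdc17 read 2.83 and 2.28 in homozygous MZ cells and 10.26 and 10.44 in homozygous FO cells. Both homozygous FO arrays lay above those of the other genotypes, since heterozygous FO arrays read 8.62 and 9.0 and wild-type FO arrays 8.14 and 8.53. The MZ deficit was therefore -7.79 ± 0.23 (SE) in homozygous and -6.05 in wild-type cells, and the Wfdc17 change of -1.74 did not pass (limma adjusted p = 0.282). Gad1, a glutamate decarboxylase, read 4.83 and 5.28 in homozygous MZ cells and 10.88 and 11.16 in homozygous FO cells, a difference of -5.96 against -4.58 in wild-type cells. Fcgrt, which encodes the neonatal Fc receptor that recycles IgG and albumin, differed by -5.41 in homozygous and -5.05 in wild-type cells. Maf, a bZIP transcription factor, differed by -5.63 and -3.13, and Lifr, the leukaemia inhibitory factor receptor, by -5.21 and -3.85. Crisp3 went the other way, at -4.62 in homozygous and -6.62 in wild-type cells, with homozygous FO arrays at 6.94 and 6.74 and wild-type FO arrays at 10.45 and 10.25. For 4 of the 15, Crisp3, Dpm3 and Col27a1 among them, homozygous MZ cells lay within 0.5 log2 units of the minimum, so the size of the difference depends on the background correction there too. None of these changes of size passed the test of the difference.

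**Figure D2:**
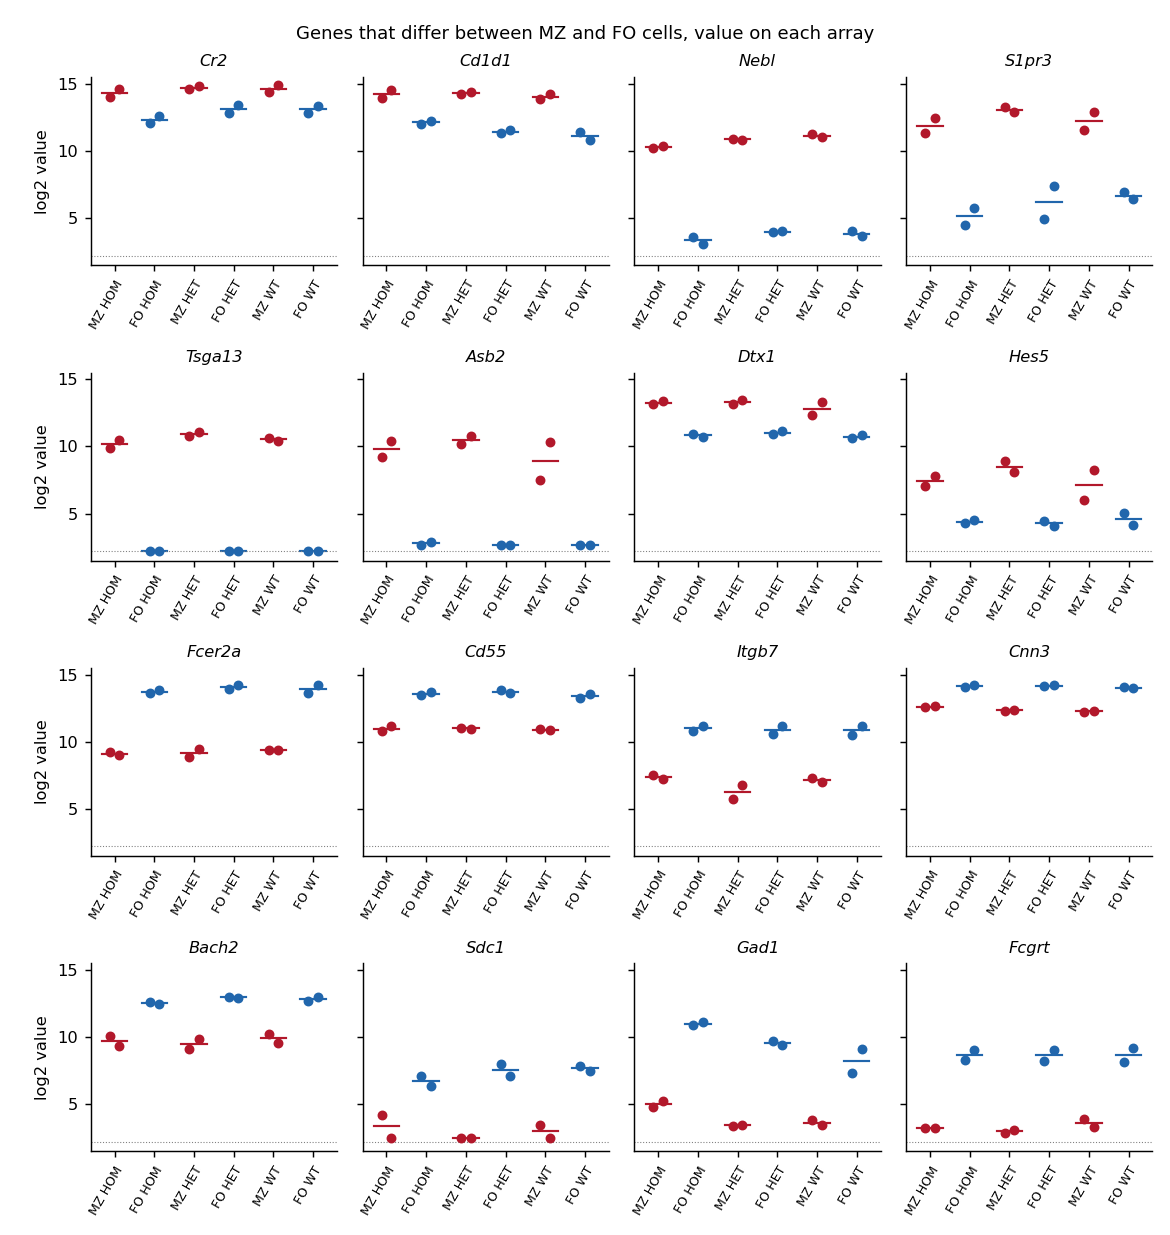
Deposited log2 value on each array for 16 genes, by cell type and genotype (HOM homozygous, HET heterozygous, WT wild-type), with MZ in red, FO in blue, horizontal bars at group means (n = 2) and the dotted line near the minimum of the values. The gap between MZ and FO cells is seen in each genotype, for example in Nebl, where homozygous MZ arrays read 10.25 and 10.36 and homozygous FO arrays 3.59 and 3.10.

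Of 21 tested members of an MZ identity list, 17 were called higher, Cr2 of the sort among them, and 2 lower in homozygous MZ cells, beside 8.27% and 10.8% of all tested genes. Their median difference was 2.12 in homozygous cells, beside 2.82 in heterozygous and 2.94 in wild-type cells (3.11 without wild-type MZ replicate 1), and 18 were called in the same direction in homozygous and wild-type cells. Cd9, a tetraspanin, read 11.73 and 11.82 in homozygous MZ cells and 8.21 and 7.33 in homozygous FO cells. Cd1d1, which presents lipids to natural killer T cells, read 13.91 and 14.57 in homozygous MZ cells and 12.01 and 12.24 in homozygous FO cells, a difference of 2.12 against 2.94 in wild-type cells. Cd36, a scavenger receptor, differed by 2.61 in homozygous cells, beside 2.82 in heterozygous and 4.23 in wild-type cells, with homozygous FO arrays at 8.92 and 8.93 and wild-type FO arrays at 7.28 and 8.07. Hvcn1 and Tmem176a, listed as MZ genes, were lower in MZ cells in every genotype, at -2.89 and -2.32 in homozygous cells. The 2 members without a homozygous call were S1pr1 (0.58) and Ackr3, which is described with the changed genes. Cd81 lost its call without homozygous FO replicate 1 (adjusted p = 0.115) or homozygous MZ replicate 2 (0.114), and Pdia4 without any single homozygous array (0.0819 to 0.146).

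The FO identity list, with 21 tested members, had 11 called lower and 1 higher in homozygous MZ cells. Fcer2a of the sort was among the 11. Over all tested genes, 10.8% were called lower and 8.27% higher. The list's median was -1.70 in homozygous cells, beside -1.86 in heterozygous and -1.63 in wild-type cells. Itgb7, an integrin chain used in homing to gut tissue, read 7.50 and 7.27 in homozygous MZ cells and 10.83 and 11.16 in homozygous FO cells. Cd55, which restrains complement, read 10.81 and 11.15 against 13.47 and 13.69 in homozygous MZ and FO cells, and Cnn3, a calponin, 12.60 and 12.64 against 14.10 and 14.26. Vpreb3, which is also on the list of transitional B cell markers, differed by -3.01, Cd200, an inhibitory ligand, by -3.15, Cmah by -2.35 and Satb1, a chromatin organiser, by -1.70. The arrays of the cell types did not overlap for these genes. Sema7a was the member higher in MZ cells, by 3.72 in homozygous and 3.30 in wild-type cells. Klf2, a regulator of B cell homing, could not be settled, since homozygous MZ arrays read 12.99 and 10.60 and homozygous FO arrays 13.93 and 13.44 (limma adjusted p = 0.214). Ccr7, the receptor that draws lymphocytes to T zones, differed by -2.09 in homozygous cells, but the call was lost without homozygous FO replicate 1 (0.0966) or MZ replicate 2 (0.0946), and Il4ra lost its call without any of 10 single arrays.

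NOTCH2 is cleaved when it meets its ligand, and its intracellular part joins the DNA-binding protein RBPJ and Mastermind to switch on targets such as Dtx1 and Hes5. Of 18 tested genes of this pathway, 2 were called higher and 3 lower in homozygous MZ cells, beside 8.27% and 10.8% of all tested genes, and 4 of these 5 were called alike in wild-type cells. Dtx1, a Notch target and ubiquitin ligase, read 13.15 and 13.35 in homozygous MZ cells and 10.92 and 10.71 in homozygous FO cells, a difference of 2.44 against 2.30 in heterozygous and 2.08 in wild-type cells. A second Dtx1 probe set ran the other way in both genotypes, at -2.22 in homozygous and -2.38 in wild-type cells. Hes5, a Notch target repressor, read 7.03 and 7.79 in homozygous MZ cells and 4.33 and 4.49 in homozygous FO cells, a difference of 3.0 against 2.58 in wild-type cells. Nrarp, which dampens Notch signalling, and Lfng, a glycosyltransferase that modifies Notch receptors, differed by -2.37 and -3.63 in homozygous cells, and by -2.49 and -3.23 in wild-type cells. Notch2 itself differed by -0.44 (limma adjusted p = 0.123). Without single homozygous arrays the list held 3 or 4 calls, since Hes5 lost its call without FO replicate 1 (0.0809), FO replicate 2 (0.0669) or MZ replicate 2 (0.101), and Maml1, a Mastermind coactivator (-0.76), lost its call without any of the 4 homozygous arrays (0.0695 to 0.198).

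The promoter windows of Hes5, a Notch target, and of Cr2 are shown because they hold the RBPJ letters GTGGGAA. Hes5 had an MZ excess in homozygous as in wild-type cells, while the excess of Cr2 describes the sort. Sequences are the 250 bases before the start from RefSeq on GRCm38.p6, 5' to 3' on the gene's strand, with matches on either strand in capitals.
Hes5 promoter window (chr4:154960673-154960922, + strand): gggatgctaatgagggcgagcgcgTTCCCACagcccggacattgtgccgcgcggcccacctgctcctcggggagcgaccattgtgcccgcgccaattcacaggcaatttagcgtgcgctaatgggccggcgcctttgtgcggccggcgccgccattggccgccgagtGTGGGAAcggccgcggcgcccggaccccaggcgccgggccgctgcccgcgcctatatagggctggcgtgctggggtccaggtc
Cr2 promoter window (chr1:195176720-195176969, - strand): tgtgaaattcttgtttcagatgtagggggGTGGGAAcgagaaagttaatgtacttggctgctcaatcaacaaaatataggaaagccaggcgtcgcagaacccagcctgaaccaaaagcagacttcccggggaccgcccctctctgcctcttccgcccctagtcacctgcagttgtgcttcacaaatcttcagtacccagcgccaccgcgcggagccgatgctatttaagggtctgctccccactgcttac
Hes5 holds 2 matches, at 226 and 83 bases before the start, and Cr2 holds 1 at 221 bases. Dtx1, S1pr3 and Ackr3 hold none in such windows. Over all 27025 promoter windows searched, 5.41% hold the motif, and 5.38% of the 7663 windows of tested genes do. A match of letters is no evidence of binding.

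Among 18 tested genes of Klf factors, sphingosine-1-phosphate receptors and homing, 1 was called higher (S1pr3) and 5 lower in homozygous MZ cells. Over all tested genes, 8.27% were called higher and 10.8% lower. Klf3, a repressor of the Kruppel-like family, read 10.54 and 11.05 in homozygous MZ cells and 12.13 and 12.64 in homozygous FO cells, and its difference was -1.59 in homozygous and -1.68 in wild-type cells. S1pr4 (-1.93) lost its call without FO replicate 2 (0.176), MZ replicate 1 (0.143) or MZ replicate 2 (0.0885) of the homozygous arrays, and Gpr174 (-1.16), a lysophosphatidylserine receptor, without FO replicate 2 (0.0722) or MZ replicate 1 (0.0733). Cxcr5, the receptor for the follicular chemokine CXCL13, read 10.53 and 12.03 in homozygous MZ cells and 10.64 and 12.11 in homozygous FO cells, and the arrays overlapped. Of 19 tested integrin and adhesion genes, 5 were called higher and 4 lower, beside the same 8.27% and 10.8%. All 9 were called alike in wild-type cells. Itgb3 and Itga6, both integrin chains, differed by -2.98 and -3.13 in homozygous cells, and Itgb5 by 1.52. Itga6, the laminin receptor chain, read 5.36 and 4.94 in homozygous MZ cells and 8.37 and 8.18 in homozygous FO cells. Itgb1, the chain shared by many integrins, was called at 0.70 but lost the call without FO replicate 2 (0.107), MZ replicate 1 (0.0671) or MZ replicate 2 (0.0725).

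Of 29 tested genes of antigen receptor signalling, 2 were called higher and 4 lower in homozygous MZ cells, which is near the 8.27% and 10.8% of all tested genes, and between 2 and 4 calls were left without 1 homozygous array. Rasgrp3, which links diacylglycerol to RAS, read 10.62 and 10.06 in homozygous MZ cells and 12.31 and 12.29 in homozygous FO cells and kept its call without any 1 array. The calls of Prkcb, Cd81, Blnk and Plcg2 did not: Prkcb failed without homozygous FO replicate 1 (0.0504), and Blnk (0.0912 to 0.176) and Plcg2 (0.0765 to 0.232) failed without any of the 4 homozygous arrays. Of 11 tested complement and Fc receptor genes, 1 was called higher (Cr2) and 3 lower, beside the same 8.27% and 10.8%. Fcmr, the Fc receptor for IgM, read 13.07 and 12.85 in homozygous MZ cells and 14.01 and 14.10 in homozygous FO cells. Of 15 Toll-like receptor pathway genes, Ly96 and Tlr3 were called higher and Irak3 lower, again beside 8.27% and 10.8% of all tested genes. Ly96, the MD-2 partner of TLR4, read 8.88 and 9.23 in homozygous MZ cells and 6.84 and 7.0 in homozygous FO cells, and Tlr3, which senses double-stranded RNA, 8.69 and 10.16 against 4.81 and 5.52. Irak3, an inhibitor of this pathway, lost its call without any of the 4 homozygous arrays (0.1 to 0.186).

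Of 13 tested costimulation genes, 4 were called higher and 2 lower in homozygous MZ cells, beside 8.27% and 10.8% of all tested genes. Cd86, a CD28 ligand, read 8.58 and 8.87 in homozygous MZ cells and 7.61 and 7.57 in homozygous FO cells, while wild-type MZ arrays read 9.57 and 9.43. Cd80, the other CD28 ligand, read 4.44 and 4.96 in homozygous MZ cells and lay at the minimum in FO cells of every genotype. The MHC class II list also holds Cd83, which is not a class II gene. Of its 17 tested members none was called higher and 2 lower in homozygous MZ cells, beside 8.27% and 10.8% of all tested genes. These were H2-Ob, a chain that restrains peptide loading, with 13.25 and 13.46 in homozygous MZ cells and 14.38 and 14.40 in homozygous FO cells, and Cd83, with 10.57 and 10.62 against 11.67 and 11.67. The list's median was -0.43, beside -0.17 over all tested genes, and it was -0.22 without homozygous MZ replicate 1.

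Of 17 tested regulators of plasma cell differentiation, 2 were called higher and 4 lower in homozygous MZ cells, beside 8.27% and 10.8% of all tested genes, and 5 of these 6 were called alike in wild-type cells. Prdm1, which encodes BLIMP1 and is a repression target of BCL6, read 5.75 and 5.84 in homozygous MZ cells and 2.98 and 2.78 in homozygous FO cells, a difference of 2.91 (limma adjusted p = 9.18e-04) against 3.48 in heterozygous and 4.24 in wild-type cells. Bach2, a repressor that delays plasma cell differentiation, read 10.11 and 9.32 in homozygous MZ cells and 12.63 and 12.45 in homozygous FO cells. Mzb1, an endoplasmic reticulum chaperone partner of IgM, read 13.36 and 13.40 in homozygous MZ cells and 12.19 and 12.29 in homozygous FO cells. Sdc1 encodes CD138, an antibody target of the depletion, and read 4.20 and 2.53 in homozygous MZ cells and 7.14 and 6.38 in homozygous FO cells. Irf8 (-0.76) lost its call without any of 8 single arrays. Of 35 secretory pathway genes 4 were called higher (Edem1, Mzb1, Pdia4 and Sdf2l1) and none lower, and 2 or 3 calls were left without 1 homozygous array, as Sdf2l1 also failed without each of these (0.107 to 0.205). The counts of secretory pathway genes stand beside 8.27% called higher and 10.8% called lower of all tested genes. Of 5 tested immunoglobulin genes, 1 was called higher and 1 lower in homozygous MZ cells, beside the same 8.27% and 10.8%. The counts were the same in wild-type cells. Ighg3 read 7.62 and 8.35 in homozygous MZ cells and 5.62 and 5.62 in homozygous FO cells.

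Cell cycle transcripts were the largest group of listed genes higher in homozygous MZ cells apart from the MZ identity list. Over all tested genes, 8.27% were called higher and 10.8% lower. Of 30 tested cell cycle and MYC genes, 12 were called higher and 1 lower, with a median of 1.04 in homozygous cells, beside 0.41 in heterozygous and 0.91 in wild-type cells, and 9 to 13 calls were left without 1 homozygous array. The homozygous median was 0.68 without MZ replicate 1 and 1.48 without MZ replicate 2. The wild-type median was 0.55 without wild-type MZ replicate 1, with 4 genes called higher and 2 lower, against 11 and 2 with it. Ccna2, the S and G2 phase cyclin, read 9.45 and 7.84 in homozygous MZ cells and 3.06 and 3.06 in homozygous FO cells, a difference of 5.58 ± 0.87 (SE, limma adjusted p = 0.00247). Heterozygous MZ arrays read 6.09 and 5.66 and wild-type MZ arrays 8.91 and 5.84, so homozygous MZ replicate 1 and wild-type MZ replicate 1 were the highest of the MZ arrays. The same 2 arrays had the highest summed log2 level of 12 neutrophil markers, 42.1 and 47.1 against 28.7 to 28.9 on the other 4 MZ arrays, and the highest mean log2 level of immediate early genes, 11.22 and 11.29 against 8.1 to 9.91. Wild-type MZ replicate 1 is also the array of shortened RNA, and the part of these values in the cell cycle differences was not tested. Top2a, the topoisomerase of dividing cells, read 11.01 and 9.50 in homozygous MZ cells and 6.65 and 5.34 in homozygous FO cells. Plk1, a mitotic kinase, read 6.20 and 4.69 in homozygous MZ cells and 3.04 and 3.03 in homozygous FO cells, and its difference of 2.41 stood beside 0.75 in heterozygous and 0.95 in wild-type cells, which were not called. In the fit to the 4 homozygous arrays alone the Plk1 call was lost (limma adjusted p = 0.0754). Ccnd3, a D-type cyclin, was the member lower in MZ cells, at -1.38. Cdk1 lost its call without MZ replicate 1 (0.0605) or FO replicate 2 (0.0568) of the homozygous arrays, as did Birc5 (0.085 and 0.0828) and Rrm2 (0.0698 and 0.0684), and Ccne1 lost it without any of 9 single arrays. No genotype difference of the cell cycle genes passed, and the test of the change for Ccna2 against wild-type cells gave 1.31 ± 1.22 (SE, limma adjusted p = 0.975).

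**Figure D3:**
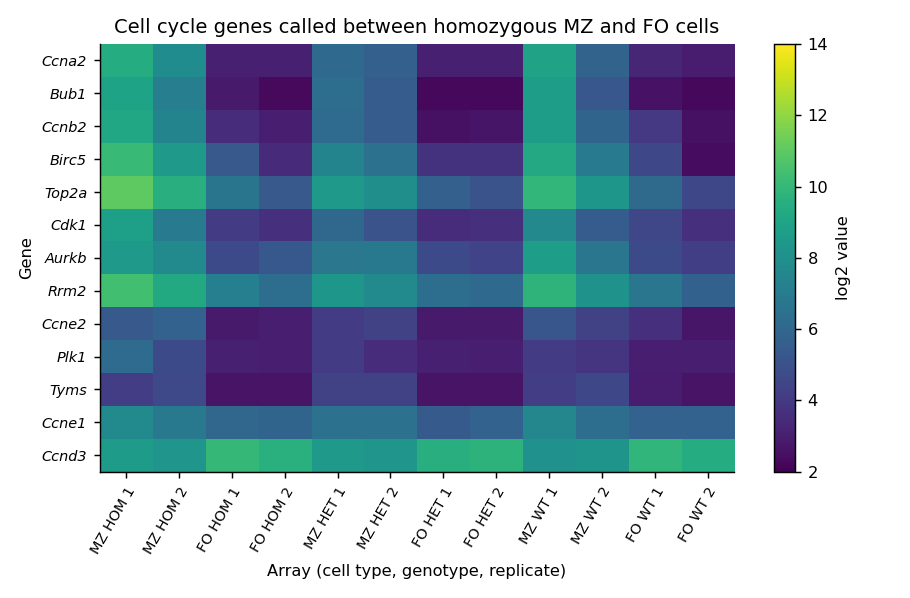
Deposited log2 value (colour) of the 13 cell cycle genes called between homozygous MZ and FO cells, on each of the 12 arrays, ordered by the homozygous difference. MZ arrays lie above FO arrays for every gene but Ccnd3, and for Ccna2 replicate 1 of homozygous MZ cells (9.45) and of wild-type MZ cells (8.91) are highest.

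Of 23 immediate early genes none was called higher and 2 lower, Nfkbia and Ier2, beside wide spread between replicates. The lower count is near the 10.8% of all tested genes, of which 8.27% were called higher. Nfkbia, the inhibitor that NF-kappaB induces, read 13.34 and 13.30 in homozygous MZ cells and 14.53 and 14.25 in homozygous FO cells. Ier2 lost its call without any of the 4 homozygous arrays (0.0685 to 0.154). The mean level of the list was 11.22 and 9.68 on the homozygous MZ arrays and 11.48 and 10.26 on the homozygous FO arrays, higher on replicate 1 of each.

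Among 16 genes of BCL6 and its corepressors, 1 was called higher (Tbl1xr1) and 3 lower (Bcl6, Hdac5 and Hdac9), and without any 1 homozygous array 1 call was left, since all but Bcl6 failed (0.0599 to 0.159). Of 26 genes listed as BCL6 targets, 4 were called higher in homozygous MZ cells (Prdm1, Cd80, Id2 and Arid3a) and 1 lower (Bcl6). All 5 were called alike in wild-type cells. The counts of both lists stand beside 8.27% called higher and 10.8% called lower of all tested genes. Id2, an inhibitor of E proteins that MZ cells are known to express, read 10.11 and 10.28 in homozygous MZ cells and 8.13 and 7.03 in homozygous FO cells, a difference of 2.62 against 2.87 in wild-type cells. The list's median was -0.14 in homozygous and -0.13 in heterozygous cells, beside 0.73 in wild-type cells, where 8 members were called higher and 3 lower. The wild-type median was 0.11 without wild-type MZ replicate 1, with 4 called higher and 2 lower. The homozygous median was 0.09 with quantile normalization, 0.04 with median centring, 0.11 without MZ replicate 2 and 0.06 without FO replicate 1 of the homozygous arrays, so it has no settled direction. The wild-type excess of Il10 (5.06), Myc (2.87) and Chek1 (3.65) came with values on wild-type MZ replicate 1, of shortened RNA, above those of replicate 2, as for Il10 at 9.23 and 5.31. In homozygous cells these differed by 3.03, 1.01 and 3.46 and were not called.

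Of 15 genes of innate-like B cells, 2 were called higher and 5 lower in homozygous MZ cells. Over all tested genes, 8.27% were called higher and 10.8% lower, which applies to each list of this paragraph. Sox4, Anxa2 and Spn differed by -3.11, -2.58 and -2.14. Sox4 is also on the list of transitional B cell markers, and Spn encodes CD43, an antibody target of the depletion. Cd5 and Fas, which encode the depletion targets CD5 and CD95, were called in the other direction, at 1.51 and 1.25. With values floored at 4 the Cd5 difference was 0.06 (limma adjusted p = 0.859). In the fit to the 4 homozygous arrays alone Fas was not called (limma adjusted p = 0.0901). Of 19 lipid genes, 3 were called higher and 5 lower, beside the same 8.27% and 10.8%. St6gal1, the sialyltransferase that makes CD22 ligands, read 10.40 and 10.18 in homozygous MZ cells and 11.94 and 12.05 in homozygous FO cells, and Hmgcs1, an enzyme of cholesterol synthesis, 9.43 and 9.20 against 10.54 and 10.41. The homozygous median was 0.15 over 28 interferon response genes and 0.01 over 22 of oxidative phosphorylation, beside -0.17 over all tested genes. The interferon median was -0.02 without MZ replicate 2 or FO replicate 1 of the homozygous arrays. Glycolysis had 2 calls in 17, Pgk1 and Tpi1, and neither held without any of the 4 homozygous arrays (0.0578 to 0.201). In the BCL2 family Bmf, a proapoptotic BH3-only gene, was called lower at 6.90 and 6.65 in homozygous MZ cells and 8.09 and 8.06 in homozygous FO cells, and it failed without MZ replicate 2 (0.0533).

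**Figure D4:**
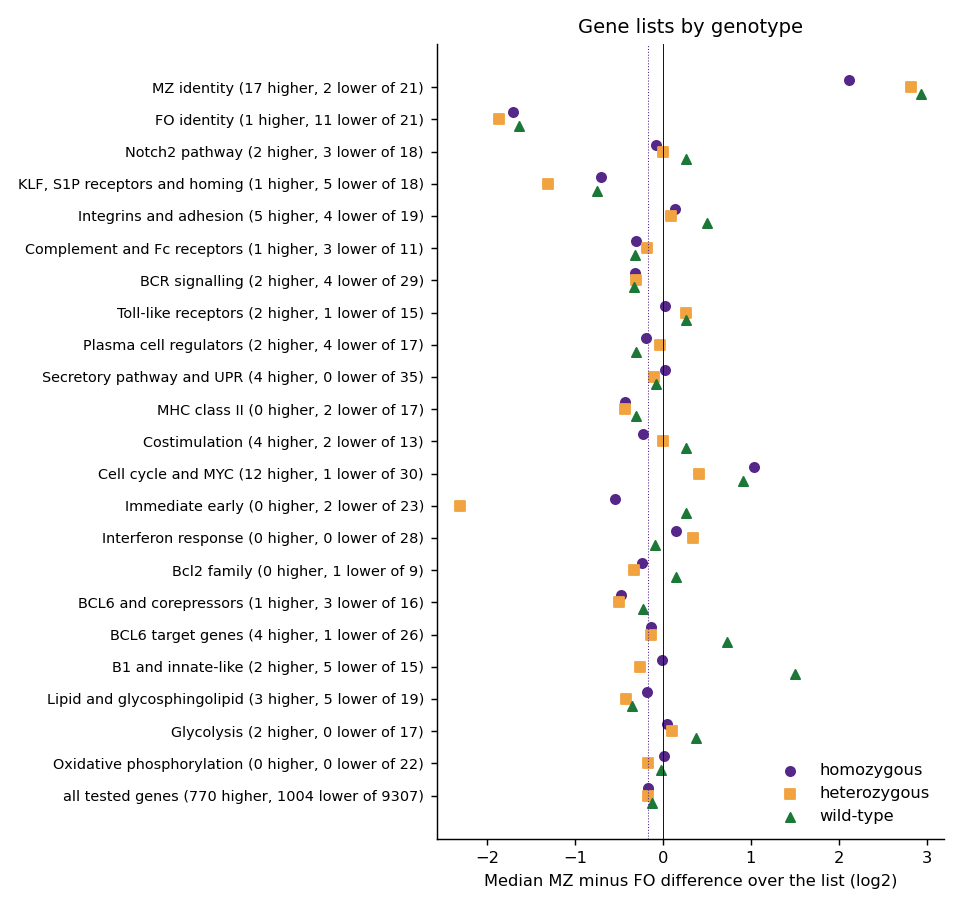
Median MZ minus FO difference (log2) over the tested members of 22 gene lists and over all tested genes, in homozygous (circles), heterozygous (squares) and wild-type (triangles) cells, with the counts called in homozygous cells beside each name and the dotted line at the homozygous median of all genes, -0.17. The MZ identity list lies highest in each genotype, at 2.12, 2.82 and 2.94, and the FO identity list near -1.70 in homozygous cells.

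The size of the MZ and FO differences was also compared on genes chosen from the heterozygous arrays alone, which enter neither of the other contrasts. Of 354 genes at least 2 log2 units higher in heterozygous MZ cells, 350 were higher in homozygous MZ cells, with a median of 2.53 in homozygous and 2.89 in wild-type cells, or 2.67 in wild-type cells without MZ replicate 1. Of 247 genes at least 2 log2 units lower, 245 were lower in homozygous MZ cells, with a median of -2.26 in homozygous and -2.22 in wild-type cells, or -2.43 without that array. The heterozygous medians of these 2 sets, 2.70 and -2.80, are set by the choice and are no result.

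Most calls found in 1 genotype and not the other kept their direction in the other. Without wild-type MZ replicate 1 these calls numbered 770 in homozygous and 218 in wild-type cells, against 342 and 634 with it, and 745 and 212 of them kept their direction in the other genotype. Of the 634 wild-type calls that were not called in homozygous cells, 606 had the same direction there and 315 had an unadjusted p under 0.05, while 103 had an unadjusted p under 0.05 for the change of the difference. Of the 342 homozygous calls not called in wild-type cells, 326 had the same direction there, and 43 had an unadjusted p under 0.05 for the change. Over all tested genes 3.74% had such a p for the change. Both sets were chosen on these same arrays as called in 1 genotype and not the other, which favours a large change. The 103 and 43 therefore describe the choice and are no result. In all, 239 genes were called in both heterozygous and wild-type cells but not in homozygous cells, and 237 of them kept the direction. Rap1gap2, which inactivates the GTPase RAP1, was the gene called in opposite directions, at -1.30 in homozygous and 1.05 in wild-type cells, and the change of -2.35 ± 0.41 did not pass (limma adjusted p = 0.248). Its homozygous call was lost without FO replicate 1 (0.0723), FO replicate 2 (0.0754) or MZ replicate 2 (0.0944) of the homozygous arrays.

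The change itself was tested as the MZ minus FO difference in homozygous cells minus that in wild-type cells, and as the homozygous difference minus the mean of the wild-type and heterozygous ones. Each limma test called 1 gene of 9307, Pik3r6, with a more negative difference in homozygous cells (0.0107%), and no gene (0%) with a more positive one. Unadjusted p-values under 0.05 were found for 348 genes (3.74%) and 253 genes (2.72%). Both are fewer than a threshold of 0.05 would give by itself if no difference had changed. That comparison assumes well-calibrated p-values, which was not checked on these arrays, so it cannot show that no difference changed. In simulations with the real spread of each gene, 200 genes were changed in homozygous MZ cells, over equal group means and independent noise. The test against wild-type cells there recovered 9% of genes changed by 1 log2 unit and 51.9% of those changed by 2. A change of 1 log2 unit was thus mostly missed in that setting. The real arrays hold many more differences, values at the minimum and 1 array of shortened RNA, so these rates need not carry over. Of the 253 genes, 157 (62.1%) had the larger homozygous shift in FO cells, beside 43.3% of all tested genes. A smaller difference between the cell types in homozygous cells was found for 162 (64%), beside 52.6%. The 253 genes were chosen by the p of the change on these same arrays, so these shares describe the choice and are no result.

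Pik3r6 encodes p84, a regulatory subunit of the PI3K gamma lipid kinase. It read 2.56 and 2.23 in homozygous MZ cells and 6.71 and 6.36 in homozygous FO cells, and it lay at the minimum on all heterozygous and wild-type arrays of both cell types. A difference of -4.14 ± 0.17 (SE, limma adjusted p = 2.45e-06) in homozygous cells thus stood beside 0.01 in both other genotypes. The change was -4.15 ± 0.24 against wild-type cells (limma adjusted p = 6.92e-04) and -4.15 against both genotypes (limma adjusted p = 2.11e-04), and it was called under each of the 21 settings run, with a largest adjusted p of 0.0212. With values floored at 4 it was -2.53, since the size rests on how low the background is set. Pik3r6 passed the filter through the 2 homozygous FO arrays alone. Arrays at the minimum add almost no spread to the fit, so its SE and adjusted p-values may be too small. The settings reuse the same arrays and are no independent support. A second probe set showed the same pattern, at 2.22 and 2.22 in homozygous MZ cells, 3.77 and 4.83 in homozygous FO cells and the minimum elsewhere.

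The genes next in line did not pass, and each is given as values. Several differed less between the cell types because homozygous FO cells were higher. Ackr3, an atypical receptor that scavenges the chemokine CXCL12, read 13.31 and 13.31 in homozygous MZ cells and 12.15 and 11.14 in homozygous FO cells. Heterozygous MZ arrays read 12.28 and 12.51 and heterozygous FO arrays 7.15 and 2.94, whereas wild-type MZ arrays read 12.76 and 12.01 and wild-type FO arrays 2.35 and 2.35. The MZ excess was 1.67 in homozygous (limma adjusted p = 0.341), 7.34 in heterozygous and 10.03 in wild-type cells, the largest wild-type difference of the genes shown. The change of -8.36 ± 1.53 against wild-type cells had limma adjusted p = 0.278, and 0.0024 without either heterozygous FO replicate, whose values lay far apart. Ackr3 was added after its values were seen.

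Atxn1, a transcriptional corepressor, read 10.92 and 10.97 in homozygous MZ cells and 9.05 and 8.79 in homozygous FO cells, against 7.38 and 7.47 in heterozygous and 6.76 and 6.36 in wild-type FO cells. Its MZ excess was 2.02 in homozygous cells, beside 3.35 in heterozygous and 4.32 in wild-type cells, and the change of -2.30 ± 0.28 had limma adjusted p = 0.115. A second Atxn1 probe set differed by 2.53 in homozygous and 3.55 in wild-type cells. Its change was -1.02 (limma adjusted p = 0.99 in the fit over every probe set). Dctd, the deaminase that makes deoxyuridylate, read 6.71 and 6.92 in homozygous MZ cells and 5.90 and 5.49 in homozygous FO cells, against 4.11 and 3.98 in heterozygous and 3.68 and 3.35 in wild-type FO cells. For both genes the FO arrays were highest in homozygous, lower in heterozygous and lowest in wild-type cells, and the homozygous FO mean lay 1.93 (Atxn1) and 1.91 (Dctd) above the mean of the other genotypes. The homozygous MZ mean lay 0.12 and 0.18 above it. Smyd2, a lysine methyltransferase, read 9.64 and 9.86 in homozygous MZ cells and 6.56 and 6.74 in homozygous FO cells, against 3.93 and 2.88 in wild-type FO cells, and its change was -2.73. Ptpn22, a phosphatase that restrains antigen receptor signals, read 10.62 and 11.16 in homozygous MZ cells and 10.70 and 10.63 in homozygous FO cells, which overlapped, against 11.75 and 11.16 in wild-type MZ cells and 8.63 and 8.66 in wild-type FO cells, which did not. Its MZ excess was 0.23 in homozygous cells, beside 1.65 in heterozygous and 2.81 in wild-type cells. Nedd4, a ubiquitin ligase, differed by 1.27, 2.39 and 4.26 in the same order of genotypes. Without wild-type MZ replicate 2, which leaves the array of shortened RNA alone in its group, 107 genes passed the test of the change, Atxn1 (0.0209), Dctd (0.0332), Smyd2 (0.0456) and Ptpn22 (0.0423) among them. Tbc1d9, of the 15 genes with the largest MZ excess, differed by 6.19 in homozygous cells, beside 7.35 in heterozygous and 7.42 in wild-type cells, with homozygous FO arrays at 3.33 and 3.45 and wild-type FO arrays at 2.47 and 2.45. Smyd2, Ptpn22 and Nedd4, like Dse below, were added after their values were seen.

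The promoter windows of Smyd2 and Ptpn22 are shown because their FO arrays read higher in homozygous than in wild-type cells and they hold the letters TTCNNNGAA of the GAS element, which the BCL6 and STAT recognition sequences resemble. The match is in capitals, on GRCm38.p6 from RefSeq, and the Ptpn22 window is the second of the 2 listed starts.
Smyd2 promoter window (chr1:189922292-189922541, - strand): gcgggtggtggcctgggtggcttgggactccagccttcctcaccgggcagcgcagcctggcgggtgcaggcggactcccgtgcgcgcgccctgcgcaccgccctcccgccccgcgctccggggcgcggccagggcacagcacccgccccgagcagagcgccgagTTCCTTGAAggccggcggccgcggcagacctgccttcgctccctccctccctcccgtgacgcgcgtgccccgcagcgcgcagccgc
Ptpn22 promoter window (chr3:103860027-103860276, + strand): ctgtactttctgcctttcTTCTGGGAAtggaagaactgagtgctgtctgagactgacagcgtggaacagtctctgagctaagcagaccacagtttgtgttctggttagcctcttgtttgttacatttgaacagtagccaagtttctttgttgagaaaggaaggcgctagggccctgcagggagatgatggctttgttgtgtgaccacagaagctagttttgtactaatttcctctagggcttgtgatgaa
The match lies 86 bases before the start of Smyd2 and 232 bases before that of Ptpn22. Ackr3, Dctd, Tspan15, Ms4a7 and Sh3bgrl2 hold none in their windows, and neither does the first window of Ptpn22. The letters occur in 7.18% of all windows and in 5.79% of those of tested genes. A match of letters is no evidence of binding, and both genes shown were added after their values were seen.

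In a second set of genes the MZ level was lower in homozygous cells. Tspan15, a tetraspanin partner of the protease ADAM10, read 5.43 and 5.44 in homozygous MZ cells, against 7.27 and 7.56 in heterozygous and 7.37 and 7.73 in wild-type MZ cells, with FO cells within 0.5 of the minimum in every genotype. Its MZ excess was 3.22, 5.12 and 5.17, and the change of -1.95 ± 0.27 against wild-type cells had limma adjusted p = 0.199. Against both genotypes the adjusted p was 0.111, and 0.0226 with values floored at 4. Ms4a7, a membrane protein of the CD20 family, read 6.36 and 6.53 in homozygous MZ cells, 7.56 and 7.55 in heterozygous and 7.55 and 7.65 in wild-type MZ cells, again over FO cells near the minimum, and its change was -1.14 (limma adjusted p = 0.224). Dse, a dermatan sulphate epimerase, moved on both sides, at 6.24 and 6.80 in homozygous MZ cells and 3.29 and 2.82 in homozygous FO cells, against 7.36 and 7.52 in wild-type MZ cells and 2.23 and 2.23 in wild-type FO cells. Grip2 read 4.73 and 4.30 in homozygous and 4.17 and 4.48 in heterozygous MZ cells, against 6.22 and 6.17 in wild-type MZ cells, so the homozygous value did not stand apart from the heterozygous one, and with values floored at 4 its homozygous call was lost (0.0806).

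Another group of genes had a wider gap in homozygous cells because FO cells were higher while MZ cells stayed low. Slco5a1, of the organic anion transporter family, read 2.29 and 2.29 in homozygous MZ cells and 5.88 and 6.42 in homozygous FO cells, against 4.81 and 4.86 in heterozygous and 4.63 and 4.31 in wild-type FO cells, and its change was -1.68 (limma adjusted p = 0.224). Rbpms, an RNA-binding protein, differed by -3.93 in homozygous cells, beside -3.03 in heterozygous and -2.41 in wild-type cells. Enkur read 2.22 and 2.42 in homozygous MZ cells and 4.28 and 4.81 in homozygous FO cells, and its difference was -2.22 in homozygous cells, beside -0.53 in heterozygous and -0.42 in wild-type cells, but with values floored at 4 the homozygous call was lost (0.0683). Sh3bgrl2 did not follow this pattern, as it was higher in both homozygous cell types. It read 5.64 and 5.37 in homozygous MZ and 6.46 and 6.59 in homozygous FO cells. Wild-type MZ arrays read 2.58 and 2.52 and wild-type FO arrays 2.77 and 2.58. Its homozygous difference of -1.02 had no counterpart in heterozygous (-0.16) or wild-type cells (-0.12), where the gene lay near the minimum.

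**Figure D5:**
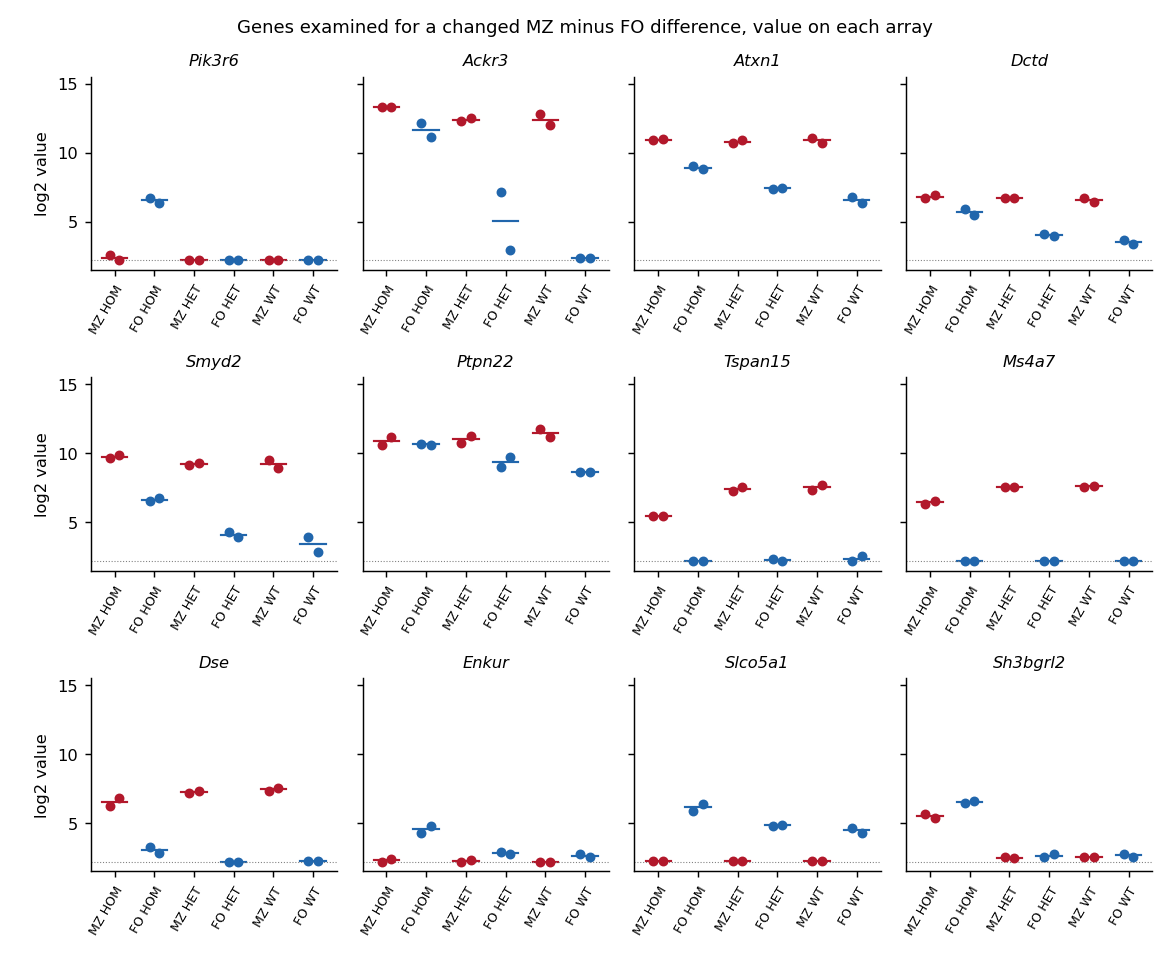
Deposited log2 value on each array for 12 genes examined for a changed MZ minus FO difference, with MZ in red, FO in blue, bars at group means (n = 2) and the dotted line near the minimum. Pik3r6 is raised only on the 2 homozygous FO arrays (6.71 and 6.36), Ackr3 is high on homozygous FO arrays (12.15 and 11.14), and Tspan15 is lower on homozygous MZ arrays (5.43 and 5.44) than on wild-type MZ arrays (7.37 and 7.73).

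Other genes called in homozygous and not in wild-type cells, taken by the smallest p of the change, had small differences. Slc49a4 differed by -1.26 in homozygous cells, beside -0.63 in heterozygous and -0.03 in wild-type cells, Eef1aknmt by -0.97, -0.84 and -0.04, and Spaca9 by -1.84, -0.61 and 0.03. Prdm11 (-0.66) lost its homozygous call without any of the 4 homozygous arrays (0.0811 to 0.176), and Gm3227 (-1.41) without FO replicate 2 (0.104) or MZ replicate 1 (0.0801). No change passed for any of these genes (limma adjusted p = 0.602 to 0.758).

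Of 6 tested transitional B cell markers, 1 was called higher (Cd24a) and 3 lower (Cd93, Vpreb3 and Sox4) in homozygous MZ cells. Over all tested genes, 8.27% were called higher and 10.8% lower. The list's median was -1.61, beside -2.05 in heterozygous and -1.54 in wild-type cells (-1.33 without wild-type MZ replicate 1). Cd93 encodes AA4.1, which both gates were to exclude, and read 4.23 and 2.5 in homozygous MZ cells and 6.71 and 5.34 in homozygous FO cells. Its difference of -2.66 (limma adjusted p = 0.0399) was lost without any of 9 single arrays, homozygous MZ replicate 2 (0.234) and FO replicate 1 (0.228) among them. The 10 markers on the array summed to 70.0 and 67.3 on the homozygous MZ arrays and 76.9 and 75.6 on the homozygous FO arrays, and Rag1, Rag2 and Dntt lay near the minimum on all 4.

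Markers of cells outside the B lineage were also detected. Of 15 T and NK cell markers, 12 lay within 0.5 of the minimum on each homozygous MZ array and 14 on each homozygous FO array, Cd3d and Cd3e among them. Prf1, which encodes perforin, read 4.86 and 5.04 in homozygous MZ cells and 2.35 and 2.30 in homozygous FO cells, a difference of 2.62 that lost its call without any of the 4 homozygous arrays (0.119 to 0.145) and stood beside 2.60 in wild-type cells. Cd8a, a T cell coreceptor chain, read 2.65 and 2.65 in homozygous MZ cells and 4.30 and 4.22 in homozygous FO cells. It differed by -1.61 in homozygous and -1.74 in wild-type cells. With values floored at 4 its homozygous difference was -0.26 (limma adjusted p = 0.222). The summed log2 level of 12 neutrophil markers was 42.1 and 28.7 on the homozygous MZ arrays and 53.7 and 28.9 on the homozygous FO arrays, and S100a8 read 7.63 and 2.42 in MZ and 9.17 and 2.66 in FO cells, so replicate 1 of both groups held this signal. The 16 myeloid markers summed to 66.6 and 57.5 on homozygous MZ and 59.4 and 51.9 on homozygous FO arrays, with Cd68 (7.58 and 7.35 in MZ and 6.13 and 4.85 in FO cells) and Csf1r called higher and Adgre1, which encodes F4/80, lower in MZ cells, each losing the call without at least 2 single homozygous arrays. Whether these cells contribute to other differences was not tested.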

How the data were processed

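RNA from sorted splenic B cells was hybridised to 12 Affymetrix arrays, 2 for each cell type and genotype. The deposited log2 values of 45101 probe sets had been made by the authors with GCRMA, per the submitters' processing notes, and its version is not given in the sources used here. Probe sets were named through the platform annotation, of which 34958 had 1 symbol, 932 several and 9211 none, and 34754 matched a RefSeq gene. Of several probe sets for 1 gene the brightest on average over all arrays was kept (18194 genes), and the 9307 genes with a log2 value of at least 4 on at least 2 arrays were tested with limma. limma 3.58.1 in R 4.3.3 fitted 6 group means over the 12 arrays (6 residual degrees of freedom), and p-values were two-sided and Benjamini-Hochberg adjusted over all tested genes. The number of arrays limits the precision.

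The text names the 15 called genes with the largest difference in each direction, the 8 with the smallest p for each test of a changed difference, the 8 with the smallest p of the change among wild-type calls and among calls found in homozygous but not wild-type cells, the sort markers and Bcl6, and of each gene list up to 6 members by p and any defining member described, and any other gene it names was chosen after its values were seen. The genes and the 33 lists were chosen with earlier results of these data known. Same-numbered MZ and FO arrays deviated from their group means with correlations of 0.68 (homozygous), 0.119 (heterozygous) and -0.216 (wild-type). The labels do not say that the numbers pair samples, and the main fit does not pair them. Same-numbered homozygous arrays nevertheless moved together, which the main p-values ignore. With a replicate block within genotype the homozygous calls numbered 1596, against 1774 in the main fit. In 10 simulations on 9307 genes, the homozygous comparison recovered 34.8% of genes changed by 1 log2 unit and 76.2% of those changed by 2. Of its calls, 4.56% were false. The simulations had equal group means, independent noise and 200 changed genes, so these rates need not carry over to the arrays. Alternatives covered the filter, scaling, floor, array weights, probe set choice, replicate block and each array left out.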

Additional observations from a re-analysis of the deposited data

Results flagged for a closer look

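Pik3r6 was singled out because the MZ minus FO difference in homozygous cells differed from that of the other genotypes by the test of the change itself. The change was -4.15 against wild-type cells (limma adjusted p = 6.92e-04) and -4.15 against the mean of wild-type and heterozygous cells (limma adjusted p = 2.11e-04). The gene was high on both homozygous FO arrays and within 0.5 log2 units of the minimum on the other 10 arrays. Arrays at the minimum add almost no spread, so these adjusted p-values may be too small.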

How the results depend on the processing

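No called difference of a named gene changed sign between settings, but some calls were lost. Among them were those of Arid3a with values floored at 4 (limma adjusted p = 0.0611) and of Plk1 in the fit to the 4 homozygous arrays (limma adjusted p = 0.0754). The homozygous calls leaned lower in MZ cells (770 higher and 1004 lower) and leaned higher with quantile normalization (886 and 659) or median centring (951 and 692). With no filter on low values the calls numbered 7796 in homozygous cells, beside 8096 in heterozygous and 8089 in wild-type cells, 6999 shared between homozygous and wild-type, and the tests of change called 6 genes (against wild-type) and 5 (against both genotypes). A filter of 6 left 942 shared calls, the fits to the 4 arrays of each comparison 480 shared and 604 wild-type calls, array weights 1320 wild-type calls, every probe set 2662 homozygous calls, and a floor at 4 gave 2 genes for the change against both genotypes. Leaving out 1 array gave 1009 to 2070 homozygous, 1081 to 2552 heterozygous and 1307 to 2537 wild-type calls, 911 to 1421 shared calls, 1 to 107 genes changed against wild-type and 1 to 2 against both. The heterozygous count was 1081 without MZ replicate 1 and the wild-type count 1307 without FO replicate 2 of those genotypes. A group left with 1 array was assumed to vary like the others. Without wild-type MZ replicate 1, Car2 passed against wild-type cells (3.86, limma adjusted p = 0.00395). The counts of shared calls under other settings were chosen after seeing the data, and the cause was not tested for any of these shifts.

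With the replicate number as a replicate block the calls numbered 2192 in homozygous cells, beside 2685 in heterozygous and 2554 in wild-type cells, and within genotype 1596, 2038 and 2003. Each blocked fit called 1 gene, Pik3r6, for each test of change.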
